A study of Mus musculus with 2 samples.

Results

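Granzymes A, B, C, D, E, F, G and K and perforin, the genes Gzma, Gzmb, Gzmc, Gzmd, Gzme, Gzmf, Gzmg, Gzmk and Prf1, were followed across the lymphocytes of mouse prostate tumour tissue and of normal prostate tissue adjacent to tumour. The 9 genes were chosen by symbol out of 32285 genes in the matrices, and each symbol matched 1 row. The data are droplet single-cell RNA counts with 1 library per tissue, from CD45+ and CD45- cells that were sorted and then loaded on 1 channel for each tissue. The labels name no strain, genotype, age, number of animals or tumour model, and no treatment. With 1 library per tissue no difference between tumour and normal adjacent tissue could be tested, and every interval below is a 95% interval of counting error only.

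Cytotoxic lymphocytes store granzymes, a family of serine proteases, together with perforin in granules that they release onto a target cell. Perforin forms pores in membranes, and granzymes that enter the target cut proteins inside it. Granzymes A and K cut after basic residues, granzyme B cuts after aspartate and can start caspase-driven death, and granzymes C to G are relatives in the mouse that are encoded beside granzyme B. CD8 T cells and natural killer (NK) cells are the best known users of these genes. B cells are not known for using them and serve as the background here.

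In the RefSeq annotation of mouse build GRCm38.p6, Gzma and Gzmk lie on chromosome 13 and Prf1 lies on chromosome 10. Gzmb, Gzmc, Gzmd, Gzme, Gzmf and Gzmg lie with Gzmn on the minus strand of chromosome 14, 7 genes within 144.716 kb. Promoter windows of 300 bases were 93.4% identical for Gzmd and Gzme, 84.5% for Gzmf and Gzmg, 82.7% for Gzmc and Gzmd, and 46.2% for Gzmb and Gzmc. The last 300 bases of the longest annotated transcripts (GENCODE vM21) of Gzmd, Gzme, Gzmf and Gzmg were 82.4% to 87.9% identical in pairs. The authors' counting could have split reads among these 4 genes, so their separate values are uncertain. The 250 bases before the start of Gzmb, Gzmc, Gzmd and Gzmf are shown because Gzmb and Gzmc were found together in most Gzmc cells of the gates below, and cells with Gzmd, Gzme, Gzmf or Gzmg mostly had Gzmc too. They read 5′ to 3′ on the minus strand in RefSeq's GRCm38.p6, at chr14:56262335-56262584 for Gzmb, chr14:56234658-56234907 for Gzmc, chr14:56132594-56132843 for Gzmd and chr14:56211408-56211657 for Gzmf. Each start is the one given in the RefSeq promoter table, and the annotated genes Gzmc and Gzmd extend upstream of it. Capitals mark matches, on either strand, to the Runx letters TGTGGT, the AP-1 letters TGANTCA and the cyclic AMP response element (CRE) letters TGACGTCA.
Gzmb: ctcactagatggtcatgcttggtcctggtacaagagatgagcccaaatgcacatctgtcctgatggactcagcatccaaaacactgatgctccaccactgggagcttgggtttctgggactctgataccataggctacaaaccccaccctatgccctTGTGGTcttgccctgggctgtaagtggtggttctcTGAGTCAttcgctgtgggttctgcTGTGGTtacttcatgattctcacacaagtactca
Gzmc: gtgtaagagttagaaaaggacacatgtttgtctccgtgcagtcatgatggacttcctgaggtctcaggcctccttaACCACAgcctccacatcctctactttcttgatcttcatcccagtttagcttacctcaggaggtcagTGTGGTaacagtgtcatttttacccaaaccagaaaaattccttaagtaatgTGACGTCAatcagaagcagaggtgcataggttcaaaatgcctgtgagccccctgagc
Gzmd: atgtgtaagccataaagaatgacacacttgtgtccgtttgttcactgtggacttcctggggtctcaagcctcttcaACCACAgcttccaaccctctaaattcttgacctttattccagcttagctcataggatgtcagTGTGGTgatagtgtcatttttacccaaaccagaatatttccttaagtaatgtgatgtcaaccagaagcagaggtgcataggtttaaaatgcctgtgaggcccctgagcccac
Gzmf: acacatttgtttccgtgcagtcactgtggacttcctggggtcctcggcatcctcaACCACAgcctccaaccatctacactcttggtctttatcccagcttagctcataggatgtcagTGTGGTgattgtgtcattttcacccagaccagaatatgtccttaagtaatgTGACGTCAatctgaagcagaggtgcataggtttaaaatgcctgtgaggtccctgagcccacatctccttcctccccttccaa

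All 9 genes had a promoter window in the RefSeq table. The Runx letters were found in the windows of 8 of the 9 genes, all but Gzmk, against 16.8% of 32851 mouse windows of the same length. The whole CRE was found in Gzmc, Gzmf and Gzmg, against 1.79% of all windows, and the AP-1 letters in Gzmb, against 7.81%. The T-box letters AGGTGTGA were in none of the 9 windows and in 1.28% of all. Genes of the chromosome 14 cluster share sequence with each other, so their matches are not separate occurrences. A match of letters is a description and not a measured binding site.

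UMIs, or unique molecular identifiers, each count 1 captured RNA molecule. There were 92188538 UMIs in 8237 barcodes for tumour and 77855775 UMIs in 6553 barcodes for normal adjacent tissue. After barcodes with under 200 genes or over 20% mitochondrial UMIs were removed, 7768 tumour and 6209 normal adjacent cells were kept. The libraries share 18 barcode sequences, of which 2 are in a tumour gate and none in a normal adjacent gate. Gates were drawn on lineage genes that include no granzyme, perforin or other granule gene, and cells with at least 0.5% of their UMIs from myeloid or from non-immune marker genes were left out. The CD8 T gate held 320 tumour and 381 normal adjacent cells. The conventional NK gate, cells without Cd3d and Cd3e, with 2 or more of 8 NK genes and 1 of these among Eomes and the Ly49 receptors, held 190 tumour and 244 normal adjacent cells. The Cd7/Itgae gate, cells with Cd7 and Itgae UMIs and none of Eomes, the Ly49 receptors, Cd4 or Cd8b1, held 168 tumour and 159 normal adjacent cells. The gamma delta T gate held 426 tumour and 305 normal adjacent cells, and the CD4 T gate 105 tumour and 117 normal adjacent cells. The B cell gate, used as the background of free RNA, held 168 tumour and 234 normal adjacent cells. A level, in CPM, is the number of UMIs of a gene divided by all UMIs summed over the cells of a gate, times 1000000. Levels were not divided by transcript length, because each molecule is counted once, at its 3′ end.

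Genes that no gate used were checked in each gate. The T cell receptor transcript Trac was found in 94.7% of tumour CD8 T cells and 94.2% of normal adjacent ones. The 6 checked CD8 T genes, Trac among them, summed to 9882 CPM in tumour and 11544 in normal adjacent CD8 T cells. In conventional NK cells they summed to 8739 CPM in tumour, with Cd5 at 0, and 10745 in normal adjacent tissue. This sum thus sets CD8 T cells apart from NK cells little. Tyrobp, an NK cell signalling adaptor, was found in 99.5% of tumour and 98.0% of normal adjacent conventional NK cells. Xcl1, a chemokine of innate lymphocytes, was found in 90.5% of tumour and 90.6% of normal adjacent Cd7/Itgae cells. The checked genes of conventional NK and of Cd7/Itgae cells were high in both of these gates and set them apart little. The 8 checked NK genes, Tyrobp among them, summed to 7177 CPM in tumour and 7491 in normal adjacent NK cells. In Cd7/Itgae cells they summed to 6610 CPM in tumour and 6723 in normal adjacent tissue. The 8 checked Cd7/Itgae genes, Xcl1 among them, summed to 9907 CPM in tumour and 9626 in normal adjacent Cd7/Itgae cells. In NK cells they summed to 7879 CPM in tumour and 8192 in normal adjacent tissue. CD3 was absent in 77 tumour and 67 normal adjacent Cd7/Itgae cells, so that gate mixes cells with and without CD3. At least 2 of the 8 NK genes used for gating were found in 81 of 168 tumour and 105 of 159 normal adjacent Cd7/Itgae cells. Il17a was found in 77.7% of tumour and 74.8% of normal adjacent gamma delta T cells. The CD4 T gate also held 1084 CPM of 7 gamma delta T cell genes in tumour and 603 CPM in normal adjacent tissue. The tumour B cell gate held 12505 CPM of the plasma cell genes Jchain and Sdc1, against 22.5 CPM in the normal adjacent B cell gate, where Jchain was at 0.

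The gates differed in which granzyme they used most. Gzmc made up 73.7% of the UMIs of the 9 genes in tumour Cd7/Itgae cells and 79.1% in normal adjacent ones. In conventional NK cells Gzma made up 35.9% in tumour and 48.4% in normal adjacent tissue, and Gzmc made up 41.7% in tumour and 21.7% in normal adjacent tissue. In CD8 T cells Gzmb had the greatest part in tumour, 40.9% against 19.2% in normal adjacent tissue, and Gzma made up 16.5% in tumour against 39.7% in normal adjacent tissue. Gzmk had its highest level in CD8 T cells, which held 13.4% of their 9-gene UMIs as Gzmk in tumour and 4.88% in normal adjacent tissue. Gzmk was at most 5.76 CPM in tumour and 3.67 CPM in normal adjacent tissue in the conventional NK, Cd7/Itgae and gamma delta T gates.

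**Figure D1:**
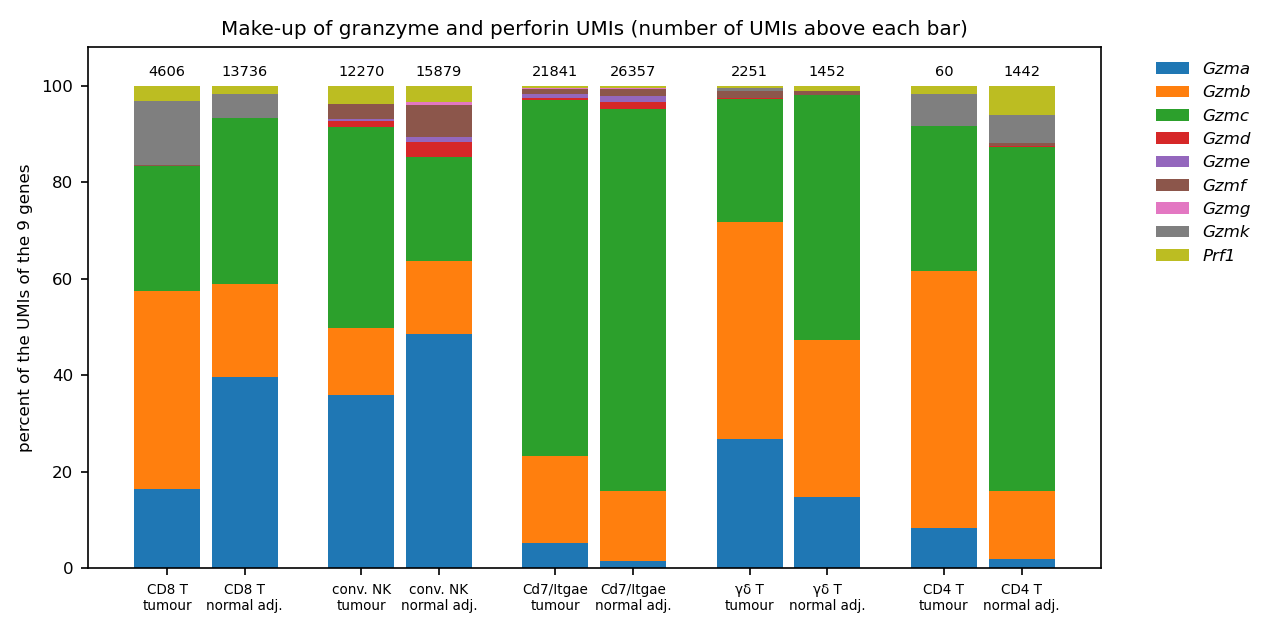
Share of each gene (percent, vertical axis) in the UMIs of the 9 granzyme and perforin genes in 5 lymphocyte gates, tumour left and normal adjacent right in each pair, with the number of UMIs above each bar. Gzmc fills most of both Cd7/Itgae bars, and Gzma is 16.5% of the tumour CD8 T bar against 39.7% of the normal adjacent one.

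Summed over the 9 genes, Cd7/Itgae cells were highest in both tissues, at 11897 CPM in tumour and 14125 in normal adjacent tissue. Conventional NK cells followed at 10093 CPM in tumour and 9706 in normal adjacent tissue. CD8 T cells came next at 1576 CPM in tumour and 3782 in normal adjacent tissue. Gamma delta T cells were at 893 CPM in tumour and 793 in normal adjacent tissue, and CD4 T cells at 74.2 CPM in tumour and 1437 in normal adjacent tissue, so these gates stand in opposite order in the tissues. The normal adjacent CD4 T value rests on 1 cell, which held 70.7% of the UMIs. B cells were lowest, at 27.5 CPM in tumour and 89.5 in normal adjacent tissue, and the antibody transcripts of the tumour B cell gate enlarge the total by which its value is divided.

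**Figure D2:**
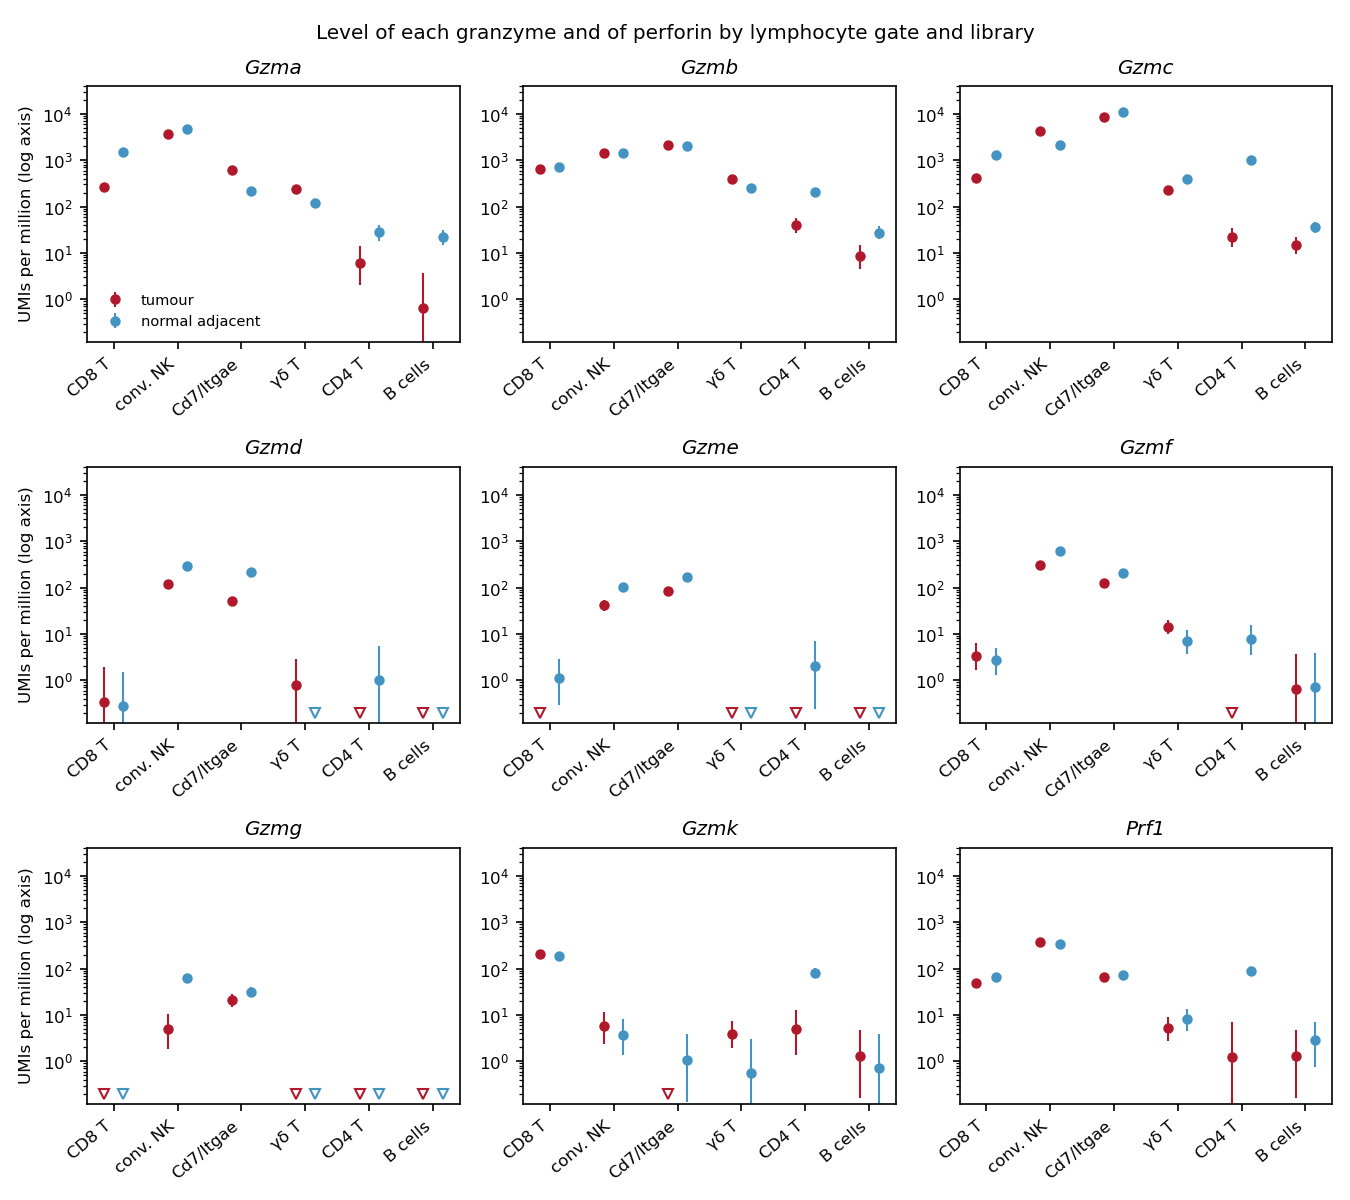
Level of each gene (CPM, log axis) in 6 gates, tumour left and normal adjacent right at each gate, with 95% counting intervals; open triangles at the foot mark a level of 0. Gzma, Gzmb and Prf1 are high in conventional NK cells in both libraries, Gzmc in Cd7/Itgae cells, and Gzmk in CD8 T cells.

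Granzyme A differed most between the tissues in CD8 T cells among the 5 genes with over 100 UMIs there in each library. Its level was 260 CPM in tumour CD8 T cells (242 to 279) and 1502 CPM in normal adjacent ones (1463 to 1543), which is 5.78-fold lower in tumour (5.35 to 6.24). At least 1 Gzma UMI was found in 13.8% of tumour CD8 T cells, at a median depth of 5925 UMIs, against 43.6% of normal adjacent ones, at a median of 6768. Among B cells the share was 0.595% in tumour, at a median of 4945 UMIs, and 12.4% in normal adjacent tissue, at a median of 4852.5. With each cell thinned to 1000 UMIs, 5.94% of tumour CD8 T cells (3.61 to 9.12) and 23.9% of normal adjacent ones (19.7 to 28.6) had a Gzma UMI. The thinned B cell shares were 0% in tumour, which allows a share of up to 1.80%, and 1.29% in normal adjacent tissue, so the CD8 T shares lie above the B cell background in both tissues.

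Fewer tumour CD8 T cells had many Gzma UMIs. At least 3 Gzma UMIs, a number chosen after seeing the data, were found in 24 of 320 tumour CD8 T cells and 101 of 381 normal adjacent ones, and in no B cell of either library. At least 50 UMIs were found in 5 tumour and 35 normal adjacent CD8 T cells. The highest cell had 136 UMIs in tumour and 372 in normal adjacent tissue.

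**Figure D3:**
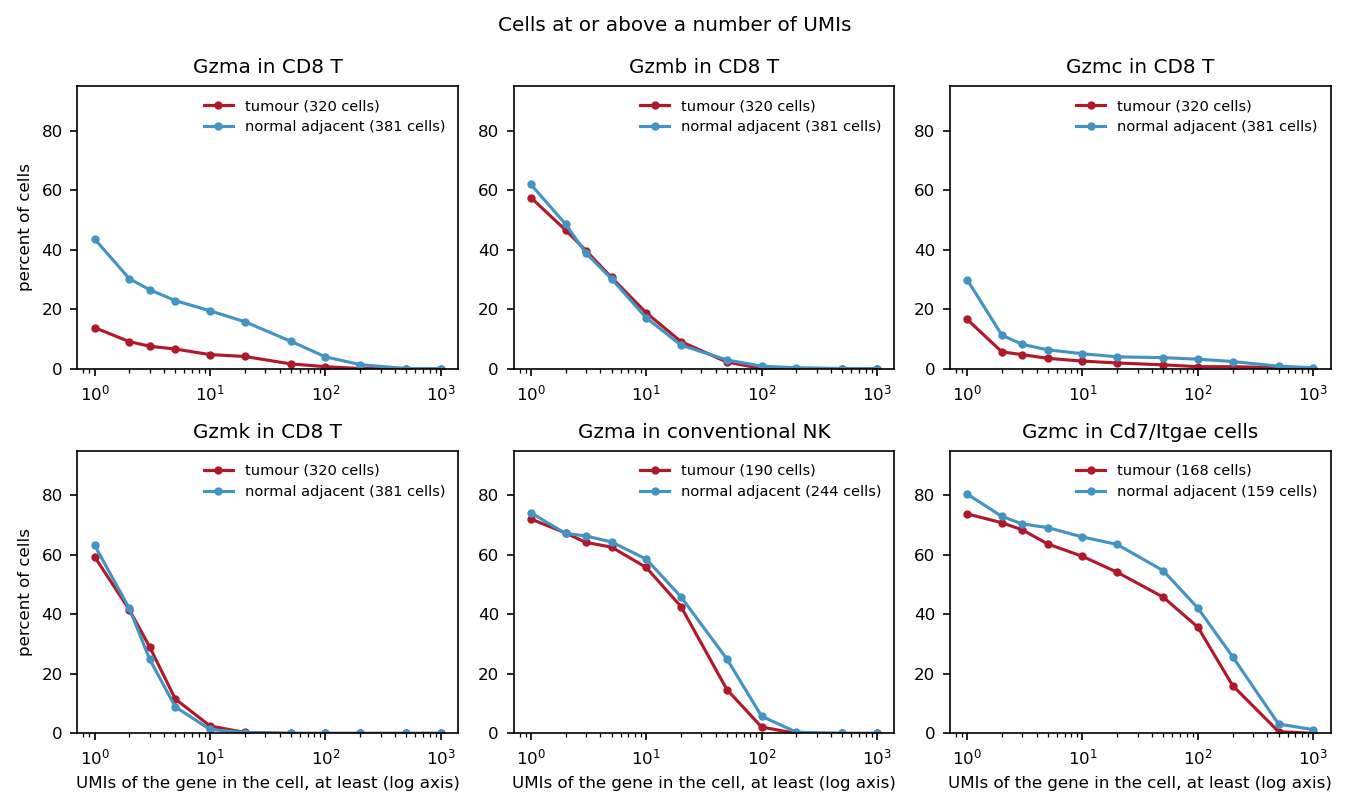
Percent of cells (vertical axis) with at least a given number of UMIs of a gene (horizontal log axis), for 4 granzymes in CD8 T cells, Gzma in conventional NK cells and Gzmc in Cd7/Itgae cells, in tumour and normal adjacent tissue. At 3 UMIs the Gzma curves of CD8 T cells stand at 7.50% in tumour and 26.5% in normal adjacent tissue, while the Gzmb curves stand at 39.7% in tumour and 38.8% in normal adjacent tissue.

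Gzma was lower in tumour in both parts of each of 3 divisions of the CD8 T cells. In CD8 T cells with a UMI of Itgae, an integrin of tissue-resident cells, Gzma was at 327 CPM in tumour and 1250 in normal adjacent tissue. Without an Itgae UMI it was at 216 CPM in tumour and 1666 in normal adjacent tissue. Cells with 2 or more of 8 NK genes had 478 CPM in tumour and 1598 in normal adjacent tissue, and the remaining cells had 217 CPM in tumour and 1483 in normal adjacent tissue. The difference was thus in the same direction in cells with and without these features. Among cells with a UMI of Mki67 or Top2a, which mark division, Gzma was 2.96-fold lower in tumour, and among the others 11.0-fold lower. Of 10052 genes with at least 20 UMIs in the CD8 T gates, 38, or 0.378%, were at least as far lower in tumour, Gzma included. Transcripts of other cells differed in the CD8 T gate too. The plasma cell genes Jchain and Sdc1 summed to 132 CPM in tumour and 3.30 in normal adjacent CD8 T cells, neither gene being at 0 in either library. The 6 macrophage genes summed to 915 CPM in tumour CD8 T cells and 750 in normal adjacent ones. The 7 gamma delta T cell genes summed to 366 CPM in tumour CD8 T cells and 135 in normal adjacent ones, with Cd163l1 at 0 in both and Trdv4 at 0 in tumour. The 7 B cell genes summed to 726 CPM in tumour CD8 T cells and 112 in normal adjacent ones. The part of all these transcripts in the Gzma difference was not tested.

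The other granzymes of CD8 T cells did not share this difference, apart from Gzmc. Gzmb was at 644 CPM in tumour (615 to 674) and 725 in normal adjacent CD8 T cells (697 to 753), 1.13-fold lower in tumour (1.06 to 1.19). Gzmk was at 210 CPM in tumour (194 to 228) and 184 in normal adjacent CD8 T cells (171 to 199), a ratio of 1.14 (1.02 to 1.27). Prf1 was at 49.6 CPM in tumour (41.9 to 58.4) and 66.6 in normal adjacent CD8 T cells (58.5 to 75.6), 1.34-fold lower in tumour (1.09 to 1.66). These 3 genes were within 1.5-fold with all cells of the gate. The log2 ratio of Prf1 passed 1.5-fold in some alternatives, at -0.63 with a myeloid limit of 1%, -0.81 without the cell of each library that has the most UMIs of the 9 genes and -0.95 without the 5 cells that have the most UMIs of Prf1, the last a choice made after seeing the data. Among CD8 T cells without an Itgae UMI, Prf1 was at 50.1 CPM in tumour and 82.2 in normal adjacent tissue, 1.64-fold lower in tumour (1.27 to 2.14). After thinning, Gzmb was found in 32.8% of tumour and 32.2% of normal adjacent CD8 T cells, against 3.59% of tumour and 3.45% of normal adjacent B cells. Gzmk was found in 21.6% of tumour and 18.1% of normal adjacent CD8 T cells after thinning, and Prf1 in 5.62% of tumour and 5.59% of normal adjacent ones, while thinned B cells held neither, which allows a share of up to 1.80% in tumour and 1.29% in normal adjacent tissue. Before thinning, Gzmb was found in 57.5% of tumour and 61.9% of normal adjacent CD8 T cells, against 7.74% of tumour and 15.4% of normal adjacent B cells. Gzmk was found in 59.4% of tumour and 63.3% of normal adjacent CD8 T cells before thinning, and Prf1 in 22.8% of tumour and 35.7% of normal adjacent ones.

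Gzmc was at 408 CPM in tumour CD8 T cells (385 to 432) and 1299 in normal adjacent ones (1263 to 1337), 3.18-fold lower in tumour (2.99 to 3.40), but few cells carried it. A single cell held 49.9% of its UMIs in tumour, and 4 cells held at least 50% in normal adjacent tissue. Without the 5 cells of each library that have the most Gzmc UMIs, again a choice made after seeing the data, the log2 ratio of Gzmc was -3.57, and without cells over the limit of 0.5% of UMIs from MHC class II genes it was -0.63, against -1.67 with all cells of the gate. CD8 T cells with at least 3 Gzmc UMIs were 15 in tumour and 31 in normal adjacent tissue, of which 14 in tumour and 29 in normal adjacent tissue also had at least 3 Gzmb UMIs. Most Gzmc of this gate was in cells with an Itgae UMI, at 981 CPM in tumour and 3010 in normal adjacent tissue, against 27.3 CPM in tumour and 187 in normal adjacent tissue without one. Gzmf gave 10 UMIs in tumour and 10 in normal adjacent CD8 T cells, Gzmd 1 UMI in tumour and 1 in normal adjacent cells, Gzme 0 in tumour and 4 in normal adjacent cells, and Gzmg none in either library.

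Of the 9 genes, 6 had the 20 UMIs needed for a ratio in CD8 T cells, and 2 of these, Gzma and Gzmc, were at least 1.5-fold lower in tumour, where 7.53% of all genes were. None was at least 1.5-fold higher in tumour, where 7.71% of all genes were. Gzma and Gzmb were also split over cells in another way in the tissues. Of CD8 T cells with at least 3 Gzma UMIs, 22 of 24 in tumour (91.7%) and 50 of 101 in normal adjacent tissue (49.5%) also had at least 3 Gzmb UMIs. Cells with Gzma and none of Gzmb, Gzmc and Gzmk at that number were 2 of 320 in tumour and 33 of 381 in normal adjacent tissue.

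The conventional NK gate had high levels of Gzma, Gzmb and Prf1 in both tissues. Of NK cells with at least 3 Gzma UMIs, 72 of 122 in tumour and 98 of 162 in normal adjacent tissue also had at least 3 of Gzmb, and 54 of 122 in tumour and 75 of 162 in normal adjacent tissue at least 3 of Prf1. Gzma was at 3628 CPM in tumour (3522 to 3737) and 4703 in normal adjacent NK cells (4598 to 4809), 1.30-fold lower in tumour (1.25 to 1.35). It was found in 72.1% of tumour and 74.2% of normal adjacent NK cells, and in 62.2% of tumour and 63.6% of normal adjacent ones after thinning. Gzmb was at 1401 CPM in tumour (1335 to 1469) and 1469 in normal adjacent NK cells (1411 to 1529), 1.05-fold lower in tumour, with an interval of 0.985 to 1.12 that includes no difference. Prf1 had its highest level of all gates here, at 375 CPM in tumour (341 to 411) and 333 in normal adjacent NK cells (305 to 362), a ratio of 1.13 (0.994 to 1.28). It was found in 73.7% of tumour and 64.8% of normal adjacent NK cells, at median depths of 4657 UMIs in tumour and 5575.5 in normal adjacent tissue, and in 32.4% of tumour and 27.6% of normal adjacent ones after thinning. None of these 3 genes passed 1.5-fold, so the lower Gzma of tumour CD8 T cells had no counterpart of that size in NK cells. The difference between the 2 cell types was not tested.

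Gzmc was higher in tumour NK cells, at 4208 CPM (4094 to 4325), against 2106 in normal adjacent NK cells (2036 to 2177), a ratio of 2.0 (1.91 to 2.09). It was found in 24.7% of tumour and 32.0% of normal adjacent NK cells. After thinning it was found in 16.0% of tumour NK cells (11.0 to 22.0) and 16.3% of normal adjacent ones (11.9 to 21.6), so the share of cells did not differ beyond its interval. At least 3 Gzmc UMIs were found in 30 of 190 tumour and 24 of 244 normal adjacent NK cells, and 5 tumour and 3 normal adjacent cells held at least 50% of the UMIs. Without cycling cells the log2 ratio was 1.98, against 1.00 with them. NK cells with an Itgae UMI, 24 in tumour and 34 in normal adjacent tissue, had Gzmc at 14161 CPM in tumour and 6249 in normal adjacent tissue. NK cells without one had 1617 CPM in tumour and 568 in normal adjacent tissue. Gzma ran the other way, at 721 CPM in tumour and 1217 in normal adjacent NK cells with an Itgae UMI, against 4385 CPM in tumour and 5996 in normal adjacent NK cells without one. At least 3 UMIs of both Gzma and Gzmc were found in 1 of the 30 tumour and 3 of the 24 normal adjacent NK cells with Gzmc. The conventional NK gate thus held cells with Gzma and cells with Gzmc, and few with both.

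Gzmd and Gzmf in NK cells came mainly from 1 cell per library. Gzmd was at 122 CPM in tumour and 295 in normal adjacent NK cells, and Gzmf at 306 CPM in tumour and 630 in normal adjacent ones. In tumour that cell had 138 UMIs of Gzmd, 345 of Gzmf and 74 of Gzmc, and it held 93.2% of the Gzmd and 92.7% of the Gzmf of the gate. In normal adjacent tissue the cell had 447 UMIs of Gzmd, 1003 of Gzmf and 981 of Gzmc, with 58086 UMIs in all, and held 92.7% of the Gzmd and 97.4% of the Gzmf. Gzme was at 42.0 CPM in tumour and 105 in normal adjacent NK cells, with 39.2% of the tumour and 87.8% of the normal adjacent UMIs in 1 cell. Gzmg was at 4.94 CPM in tumour and 63.6 in normal adjacent NK cells, with 97.1% of the normal adjacent UMIs in 1 cell. Gzmk gave 7 UMIs in tumour and 6 in normal adjacent NK cells. Of the 8 genes with a ratio in NK cells, these 4 were at least 1.5-fold lower in tumour, where 6.54% of all genes were, and Gzmc was at least 1.5-fold higher, where 10.6% of all genes were. Without the 1 cell of each library that has the most UMIs of the 9 genes, the log2 ratios of Gzmd, Gzme, Gzmf and Gzmg turned to 2.47, 1.67, 4.18 and 1.39. Without the cell with the most UMIs of the gene itself, a choice made after seeing the data, that of Gzmf turned to 0.40 and that of Gzme to 0.96. With a myeloid limit of 0.2%, all 4 turned, to between 1.34 and 4.12.

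Cd7/Itgae cells had the highest Gzmc level of the gates. They held 26.0% of all Gzmc UMIs in tumour and 26.7% in normal adjacent tissue. Cells over the myeloid limit held 30.6% in tumour and 25.5% in normal adjacent tissue, and ungated cells with 2 NK genes and CD3 held 19.6% in tumour and 21.7% in normal adjacent tissue. Ungated cells with 2 NK genes and no CD3 had Gzmc at 8665 CPM in tumour and 7288 in normal adjacent tissue. In the Cd7/Itgae gate Gzmc was at 8771 CPM in tumour (8636 to 8908) and 11174 in normal adjacent cells (11023 to 11327), 1.27-fold lower in tumour (1.25 to 1.30). It was found in 73.8% of tumour and 80.5% of normal adjacent Cd7/Itgae cells, at median depths of 9518 UMIs in tumour and 10022 in normal adjacent tissue. After thinning it was found in 59.5% of tumour (51.7 to 67.0) and 67.7% of normal adjacent Cd7/Itgae cells (59.8 to 74.9), against 3.59% of tumour and 3.45% of normal adjacent B cells. At least 50 Gzmc UMIs were found in 77 of 168 tumour and 87 of 159 normal adjacent cells, and 23 cells in each library held at least 50% of the UMIs, with at most 3.94% in 1 tumour cell and 5.73% in 1 normal adjacent cell. Gzmb was at 2153 CPM in tumour (2086 to 2221) and 2037 in normal adjacent Cd7/Itgae cells (1973 to 2103), a ratio of 1.06 (1.01 to 1.11) and the highest level of Gzmb in any gate. Gzmb and Gzmc were mostly in the same cells, since of the cells with at least 3 Gzmc UMIs 99 of 115 in tumour and 103 of 112 in normal adjacent tissue had at least 3 of Gzmb. Prf1 was at 67.0 CPM in tumour and 71.8 in normal adjacent Cd7/Itgae cells, below its level in NK cells of both tissues.

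The Cd7/Itgae cells without CD3 had more Gzmc than those with it. Without CD3, Gzmc was at 11982 CPM in tumour and 15236 in normal adjacent tissue. With at least 2 CD3 UMIs it was at 5110 CPM in tumour and 6596 in normal adjacent tissue. Prf1 was at 104 CPM in tumour and 95.1 in normal adjacent tissue without CD3, and at 27.8 CPM in tumour and 34.0 in normal adjacent tissue with CD3. Gzmc was at 4065 CPM in tumour and 8219 in normal adjacent tissue among dividing cells, and at 12533 CPM in tumour and 12848 in normal adjacent tissue among the others. Tumour was thus 2.02-fold lower among dividing cells and 1.03-fold lower among the others. Dividing cells were 32.7% of the tumour and 24.5% of the normal adjacent gate.

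Gzma was at 621 CPM in tumour (585 to 658) and 219 in normal adjacent Cd7/Itgae cells (198 to 241), a ratio of 2.84 (2.53 to 3.19), but in each library 2 cells held at least 50% of its UMIs. A Gzma UMI was found in 11.3% of tumour and 17.6% of normal adjacent cells. After thinning, 4.17% of tumour (1.69 to 8.40) and 6.96% of normal adjacent cells (3.53 to 12.1) had a Gzma UMI, with overlapping intervals, and at least 3 Gzma UMIs were found in 9 of 168 tumour and 8 of 159 normal adjacent cells. The thinned log2 ratio of the level was -0.056. Gzmd was at 51.7 CPM in tumour and 214 in normal adjacent cells, with 59.2% of the normal adjacent UMIs in 1 cell. Gzme was at 84.4 CPM in tumour and 172 in normal adjacent cells, and 2 cells in each library held at least 50% of it. Gzmf was at 129 CPM in tumour and 204 in normal adjacent cells, and Gzmg at 20.7 CPM in tumour and 31.6 in normal adjacent cells, each with over 50% in 1 cell of each library. With 1 UMI more needed per marker the log2 ratios of Gzmd and Gzmf turned to 1.60 and 2.88, and that of Gzme was -0.20, against -1.03 with all cells. Of the 8 genes with a ratio, Gzmd, Gzme, Gzmf and Gzmg were at least 1.5-fold lower in tumour, where 6.52% of all genes were, and Gzma was at least 1.5-fold higher, where 7.67% of all genes were. The Gzmg difference, 1.53-fold, had an interval of 0.999 to 2.36 that includes no difference, and its log2 ratio turned to 1.17 with 1 UMI more needed per marker and to 0.72 after thinning. The stromal genes Col1a1, Col3a1 and Dcn summed to 23.4 CPM in tumour and 283 in normal adjacent Cd7/Itgae cells, none at 0, and their part in these differences was not tested. Gzmk gave 0 UMIs in tumour and 2 in normal adjacent Cd7/Itgae cells, so no ratio is given.

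**Figure D4:**
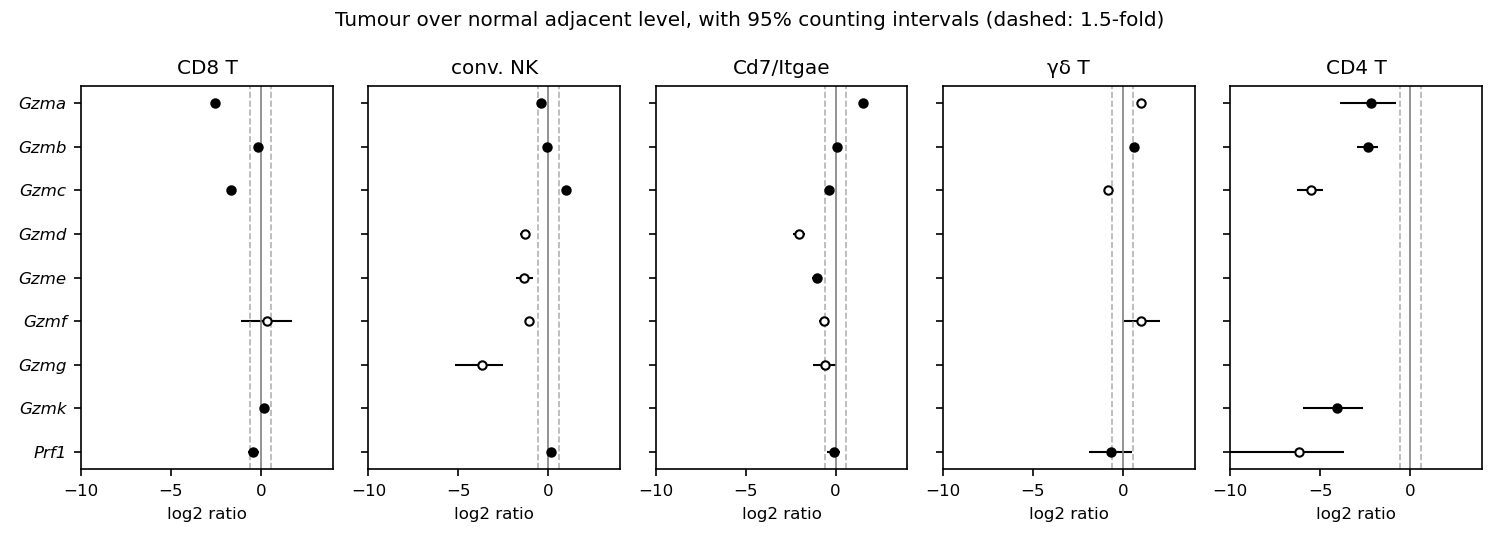
Log2 ratio of tumour over normal adjacent level (horizontal axis) for each gene with at least 20 UMIs in 5 gates, with 95% counting intervals; dashed lines mark 1.5-fold, and open points have over 50% of the UMIs of at least 1 library in a single cell. The points for Gzma and Gzmc of CD8 T cells lie left of the 1.5-fold line, and those for Gzmb, Gzmk and Prf1 of CD8 T cells lie within the lines.

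Across all kept cells, granzymes D, E, F and G were found mostly in cells that also had granzyme C. At least 3 UMIs of any of the 4 were found in 75 tumour and 87 normal adjacent cells, of which 70 in tumour (93.3%) and 76 in normal adjacent tissue (87.4%) also had at least 3 Gzmc UMIs. Conversely, 12.2% of 572 tumour and 12.7% of 599 normal adjacent Gzmc cells had any of the 4. All 4 together were found in 1 tumour and 4 normal adjacent cells, and 2 or more in 30 tumour and 29 normal adjacent cells.

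Gamma delta T cells held little granzyme per cell. At least 3 UMIs of any of Gzma, Gzmb, Gzmc and Gzmk were absent from 404 of 426 tumour cells (94.8%) and 275 of 305 normal adjacent cells (90.2%). Gzmb was at 401 CPM in tumour and 258 in normal adjacent gamma delta T cells, a ratio of 1.56 (1.39 to 1.74), with at least 50% of the UMIs in 5 tumour and 7 normal adjacent cells. Its log2 ratio was -0.015 without cycling cells and -0.062 after thinning. Gzmb was found in 13.6% of tumour and 23.3% of normal adjacent gamma delta T cells, at median depths of 4609.5 UMIs in tumour and 5293 in normal adjacent tissue. After thinning, Gzmb was found in 5.41% of tumour (3.46 to 8.01) and 10.6% of normal adjacent gamma delta T cells (7.39 to 14.7), against 3.59% of tumour and 3.45% of normal adjacent B cells, so the share of cells was lower where the level was higher, and no order is read from it. Gzma was at 240 CPM in tumour and 118 in normal adjacent tissue, with at least 50% of the UMIs in 2 tumour cells and 1 normal adjacent cell. After thinning its log2 ratio was -0.041. Gzmc was at 228 CPM in tumour and 401 in normal adjacent tissue, with at least 50% in 1 tumour and 2 normal adjacent cells. Gzmc UMIs were found in 13.8% of tumour and 23.9% of normal adjacent gamma delta T cells before thinning, against 13.7% of tumour and 19.7% of normal adjacent B cells, so this share is near the background. Prf1 gave 13 UMIs in tumour and 15 in normal adjacent tissue, 1.59-fold lower in tumour with an interval of 0.705 to 3.63. Gzmf gave 36 UMIs in tumour and 13 in normal adjacent tissue, mostly from 1 cell of each, and its log2 ratio turned to -3.94 without cycling cells. Gzmk gave 10 UMIs in tumour and 1 in normal adjacent tissue, too few for a ratio. Gzmd gave 2 UMIs in tumour and none in normal adjacent gamma delta T cells, and Gzme and Gzmg gave none in either library. Of the 5 genes with a ratio, Gzmc and Prf1 were at least 1.5-fold lower in tumour, where 5.18% of all genes were, and Gzma, Gzmb and Gzmf at least 1.5-fold higher, where 11.3% of all genes were. The Gzmc and Prf1 differences fell short of 1.5-fold in several alternatives. The log2 ratio of Gzmc was -0.080 with MHC class II under 0.5%, -0.099 without cells with 2 NK genes and -0.37 after thinning, against -0.81 with all cells. That of Prf1 was -0.084 without cells with 2 NK genes, -0.36 with a myeloid limit of 1% and -0.50 after thinning, against -0.67. Transcripts of other cells differed in the gamma delta T gate too. The 4 epithelial genes summed to 263 CPM in tumour and 46.4 in normal adjacent gamma delta T cells, and the 3 stromal genes to 130 CPM in tumour and 8.19 in normal adjacent ones, none at 0. The 7 dendritic cell genes, MHC class II genes among them, summed to 6963 CPM in tumour and 5070 in normal adjacent gamma delta T cells. The 7 B cell genes summed to 351 CPM in tumour, with Fcmr at 0, and 61.7 in normal adjacent tissue, with Cd22, Pax5 and Ebf1 at 0, and the 8 NK genes to 53.2 CPM in tumour and 127 in normal adjacent tissue, with Ncr1 and Eomes at 0 in both. Their part in the differences was not tested.

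CD4 T cells had almost no granzyme or perforin in tumour. All 9 genes together gave 60 UMIs in 105 tumour cells, against 1442 UMIs in 117 normal adjacent cells. Gzmc gave 18 UMIs in tumour and 1029 in normal adjacent CD4 T cells, and 1 normal adjacent cell held 917. Gzma gave 5 UMIs in tumour and 28 in normal adjacent CD4 T cells, or 6.18 CPM in tumour and 27.9 in normal adjacent tissue, against 0.655 CPM in tumour and 21.8 in normal adjacent B cells. With the B cell level subtracted the log2 ratio of Gzma was -0.13, against -2.17 without, so the Gzma difference of CD4 T cells cannot be told apart from the background. Gzmb gave 32 UMIs in tumour and 203 in normal adjacent CD4 T cells. Most normal adjacent CD4 T cells also had little, since 83.8% of them had no 3 UMIs of any of Gzma, Gzmb, Gzmc and Gzmk, against 98.1% in tumour. Gzmk gave 4 UMIs in tumour and 82 in normal adjacent CD4 T cells, 16.5-fold lower in tumour by CPM (6.22 to 62.1), with 5 cells holding at least 50% of the normal adjacent UMIs. Gzmf gave 0 UMIs in tumour and 8 in normal adjacent CD4 T cells, and Gzmd, Gzme and Gzmg at most 2 in either library. Prf1 gave 1 UMI in tumour and 89 in normal adjacent CD4 T cells, 71.8-fold lower in tumour (12.6 to 2866), with at least 50% of the normal adjacent UMIs in 3 cells. Gzmk was found in 3.81% of tumour and 18.8% of normal adjacent CD4 T cells, at median depths of 5202 UMIs in tumour and 5092 in normal adjacent tissue. It was found in 0.952% of tumour and 7.69% of normal adjacent CD4 T cells after thinning, with overlapping intervals (0.0241 to 5.19 in tumour, 3.58 to 14.1 in normal adjacent tissue). All 5 genes with a ratio were at least 1.5-fold lower in tumour, where 10.7% of all genes were, and none was at least 1.5-fold higher, where 10.4% were. The 8 NK genes summed to 18.5 CPM in tumour, with Klra4, Klra7 and Klra8 at 0, and 105 CPM in normal adjacent CD4 T cells, with none at 0, and 1 tumour and 9 normal adjacent cells had 2 or more of them. Without these cells the summed log2 ratio of the 9 genes was -4.76, against -4.28 with them. The 4 epithelial genes summed to 269 CPM in tumour and 64.8 in normal adjacent CD4 T cells, and 7 B cell genes to 323 CPM in tumour and 99.6 in normal adjacent ones. The 7 dendritic cell genes, MHC class II genes among them, summed to far more, 18534.5 CPM in tumour and 23522 in normal adjacent CD4 T cells. In B cells they summed to 25230 CPM in tumour and 37618 in normal adjacent tissue. The MHC class II limit was passed by 27 of 105 tumour and 34 of 117 normal adjacent CD4 T cells. The part of these transcripts in the differences was not tested.

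**Figure D5:**
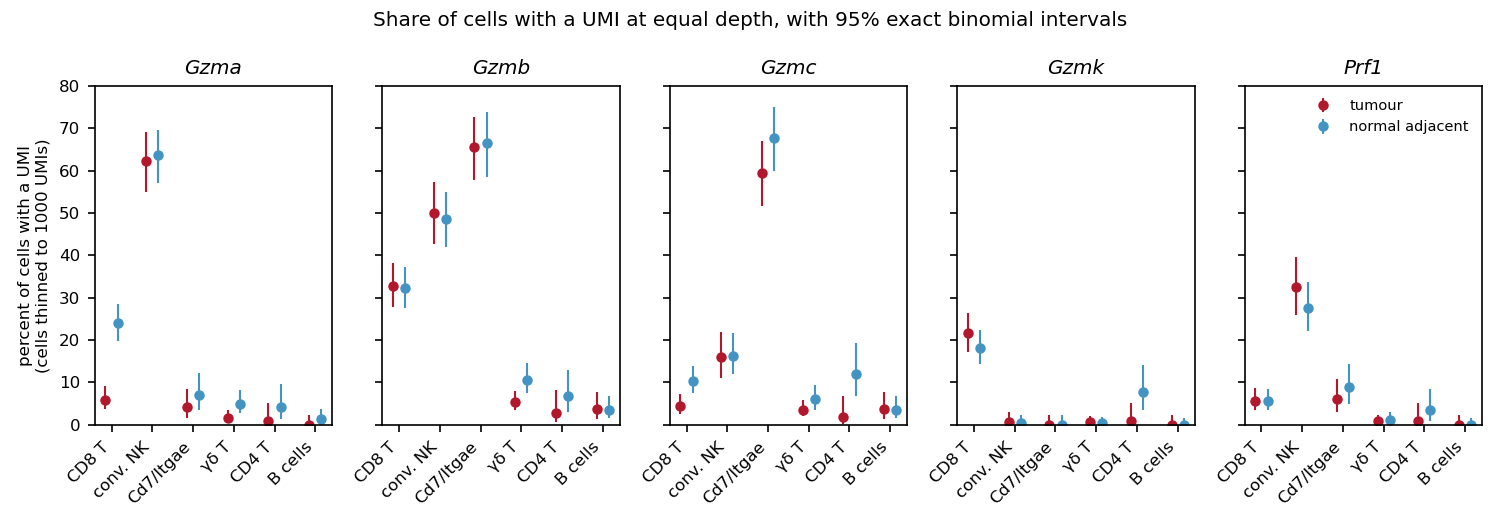
Percent of cells with a UMI of Gzma, Gzmb, Gzmc, Gzmk and Prf1 (vertical axis) in 6 gates after each cell was thinned to 1000 UMIs, tumour left and normal adjacent right, with exact binomial 95% intervals. The Gzma intervals of CD8 T cells lie apart, 3.61 to 9.12 in tumour and 19.7 to 28.6 in normal adjacent tissue, and those of conventional NK cells overlap.

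The gates held 35.9% of all UMIs of the 9 genes in tumour and 37.5% in normal adjacent tissue, so most lay in cells that the gates leave out. Cells with 2 or more NK genes and CD3 that no gate took, 252 in tumour and 253 in normal adjacent tissue, held 19.2% in tumour and 19.8% in normal adjacent tissue. In them Gzma was at 779 CPM in tumour and 1963 in normal adjacent tissue, 2.52-fold lower in tumour (2.40 to 2.65), while Gzmb was at 2314 CPM in tumour and 2137 in normal adjacent tissue. Cells over the myeloid limit held 34.6% in tumour and 31.3% in normal adjacent tissue, and 1288 of 3827 such tumour cells and 1036 of 2494 normal adjacent ones had at least 2 CD3 UMIs. Gzma was at 152 CPM in tumour and 396 in normal adjacent tissue there, 2.61-fold lower in tumour (2.54 to 2.68).

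Genes that handle granules were compared between the tissues in each gate. Of 14 measured granule genes in CD8 T cells, none was at least 1.5-fold lower in tumour, where 7.53% of all genes were. The granzyme M gene Gzmm, with 23 UMIs in tumour and 14 in normal adjacent tissue, was the 1 higher, where 7.71% of all genes were. The median log2 ratio of the list was -0.08, against -0.01 over all genes. Srgn, the proteoglycan core of granules, was at 1801 CPM in tumour and 2007 in normal adjacent CD8 T cells, and Nkg7, a granule membrane protein needed for degranulation, at 2014 CPM in tumour and 2349 in normal adjacent ones. In conventional NK cells and in Cd7/Itgae cells no granule gene passed 1.5-fold either way, of 14 measured in NK cells and 13 in Cd7/Itgae cells. Of all genes, 6.54% were lower in tumour and 10.6% higher in NK cells, and 6.52% lower and 7.67% higher in Cd7/Itgae cells. In gamma delta T cells 5.18% of all genes were lower and 11.3% higher. With so few granule genes no result is read from these counts, nor from that of CD8 T cells. No granule gene passed in gamma delta T cells either, of 13 measured. In CD4 T cells 5 of 13 granule genes were at least 1.5-fold lower in tumour and none higher, where 10.7% of all genes were lower and 10.4% higher. Nkg7 was among the 5, with 160 UMIs in tumour and 789 in normal adjacent tissue. Of measured serpins that inhibit granzymes, none passed 1.5-fold in CD8 T (4 measured), conventional NK (5), Cd7/Itgae (4) or gamma delta T cells (4). Of all genes, 15.2% in CD8 T, 17.2% in NK, 14.2% in Cd7/Itgae and 16.5% in gamma delta T cells passed either way. With so few serpins no result is read from this. In CD4 T cells 1 of 4 serpins was at least 1.5-fold lower in tumour and 1 was higher. Of all genes there, 10.7% were lower and 10.4% higher. Serpinb9, the mouse inhibitor of granzyme B, was at 223 CPM in tumour and 241 in normal adjacent CD8 T cells, at 691 CPM in tumour and 757 in normal adjacent NK cells, and at 552 CPM in tumour and 557 in normal adjacent Cd7/Itgae cells.

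Of 8 checkpoint genes in CD8 T cells, 4 were at least 1.5-fold lower in tumour and none higher, with a median log2 ratio of -0.65, where 7.53% of all genes were lower and 7.71% higher, shares that hold for each list of CD8 T cells here. In CD4 T cells 6 of 7 measured checkpoint genes were at least 1.5-fold lower, with a median log2 ratio of -1.05, where 10.7% of all genes were lower. Tnfrsf9, an activation receptor of T cells, was at 230 CPM in tumour and 490 in normal adjacent CD8 T cells, 2.13-fold lower in tumour, while Tox was at 159 CPM in tumour and 155 in normal adjacent ones. The others lower were Lag3, Havcr2 and Tigit, named after their values were seen. Of 10 killer cell receptors, 2 were at least 1.5-fold lower in tumour CD8 T cells, with Klrc2 at 33.2 CPM in tumour and 88.9 in normal adjacent tissue. The other was Klrc1, named after its values were seen. Of 9 other effector genes 1 was lower, the chemokine Ccl4, at 469 CPM in tumour and 805 in normal adjacent CD8 T cells. Of 11 transcription factors 2 were lower, with Id2 at 664 CPM in tumour and 1049 in normal adjacent tissue and Irf8 at 111 CPM in tumour and 192 in normal adjacent tissue. Of 11 cytokine receptors 1 was lower and 2 were higher in tumour, with Il7r, the interleukin 7 receptor, at 74.9 CPM in tumour and 48.2 in normal adjacent CD8 T cells. Il12rb2 was the lower one and Il2ra the other higher one, both named after their values were seen. Of 9 other effector genes in Cd7/Itgae cells, 2 were at least 1.5-fold lower in tumour and 1 was higher. Their median log2 ratio was 0.02. Of all genes in that gate, 6.52% were lower and 7.67% higher. Ifng, the gene of interferon gamma, was among those lower, with 40 UMIs in tumour and 168 in normal adjacent tissue. It was 4.13-fold lower in tumour (2.91 to 5.99), while Gzmb of the same cells had a ratio of 1.06.

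The genes whose levels ran most like those of a member were searched over the 12 sums of 6 gates in 2 libraries, among 9347 genes. Gzmb was most like Higd1a (Pearson r = 0.99), Cd7 (r = 0.99) and Xcl1 (r = 0.97), of which Cd7 defines a gate. Gzmc was most like Hivep3, Tpp2 and Gm11714, at r = 0.97, 0.97 and 0.96. Prf1 was most like Ccl4, Baiap3 and Samd3, at r = 0.95, 0.95 and 0.94. Gzma was most like Cab39, Gatad2a and Vhl, each at r = 0.93, and Gzmk most like Cblb, Ppp2r2c and Fcgr1, at r = 0.88, 0.88 and 0.87. Gzmd, Gzme, Gzmf and Gzmg all had Vegfa among their 3 most alike, and their levels rest on few cells. The sums share libraries, depth and gates, so these values only describe likeness over 12 points.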

How the data were processed

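Droplet single-cell RNA libraries of mouse prostate tumour and of normal adjacent tissue, 1 library each, were compared. The authors deposited matrices of raw UMI counts for each gene in each barcode; per the file headers these came from Cell Ranger 4.0.0. R 4.0.3 and Seurat 3.2.2 are named in the submitters' processing notes. Tissue was digested for 45 min in 1 mg/ml collagenase and passed a 40 µm strainer, per the labels' protocols. No source used here gives the mouse genome build behind the counts, and coordinates and promoter sequences are RefSeq's for GRCm38.p6.

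Cells with at least 200 genes and at most 20% mitochondrial UMIs were kept. No doublet caller was run. Gates left out cells with 0.5% or more of their UMIs from myeloid or non-immune genes. They also left out cells with over 1 B cell UMI in T and NK gates, and cells with some markers of another lymphocyte type. NK genes were not limited in the CD8 T and CD4 T gates, nor Ncr1, Klrb1c and Klre1 in the Cd7/Itgae gate, nor Cd3g in the NK gate. At least 2 NK genes were found in 33 tumour and 38 normal adjacent CD8 T cells. At least 2 CD3 UMIs were found in 14 tumour and 26 normal adjacent NK cells. Counts were summed per gate and divided by the summed UMIs, with exact Poisson intervals, exact conditional binomial intervals for ratios and Clopper-Pearson intervals for shares, all at 95% and for counting error only. Ratios needed 20 UMIs over both libraries and were called at 1.5-fold; a count of 0 allows 3 counts. No test or p-value was possible with 1 library per tissue. Shares were repeated with each cell thinned to 1000 UMIs. The ratio code was checked on simulated gene totals drawn with counting error only, so the check does not cover UMIs gathered in few cells. Every member is named in every gate; lists name up to 4 genes by UMI sum over the gates. Members, gates and lists were chosen with earlier results of these data known. Alternatives changed the marker limits, depth, scaling, cycling cells and the highest cells. Python 3.11.15, NumPy 2.4.6, SciPy 1.17.1, pandas 2.3.3 and matplotlib 3.10.9 were used.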

Additional observations from a re-analysis of the deposited data

Results flagged for a closer look

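For 6 member and cell type pairs, tumour lay above normal adjacent tissue in one gate and below it in another, on the log2 scale of tumour over normal adjacent levels. With 1 library per tissue the difference between gates was not tested. Gzma had a log2 ratio of 1.02 in gamma delta T cells and 1.51 in Cd7/Itgae cells, both set against -2.53 in CD8 T cells. Gzmb had 0.64 in gamma delta T cells against -2.35 in CD4 T cells. Gzmc had 1.00 in conventional NK cells against -5.53 in CD4 T cells. Gzmf had 1.01 in gamma delta T cells against -1.04 in conventional NK cells, and Gzmk had 2.86 in gamma delta T cells against -4.05 in CD4 T cells. The Gzmk value of gamma delta T cells rests on 11 UMIs in all, below the 20 UMIs needed for a ratio elsewhere. After thinning to 1000 UMIs per cell the log2 ratio of Gzma was -0.041 in gamma delta T and -0.056 in Cd7/Itgae cells, and that of Gzmb in gamma delta T cells was -0.062. The log2 ratio of Gzmf in gamma delta T cells was -3.94 without cycling cells, and in conventional NK cells 0.40 without the cell of each library with the most Gzmf UMIs. Of the 1029 Gzmc UMIs of normal adjacent CD4 T cells, 917 were in 1 cell.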

How the results depend on the processing

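Values here are log2 ratios of tumour over normal adjacent levels. The summed level of the 9 genes was -1.26 in CD8 T, 0.06 in conventional NK, -0.25 in Cd7/Itgae, 0.17 in gamma delta T, -4.28 in CD4 T and -1.70 in B cells. With a myeloid limit of 0.2% it was -1.08 in CD8 T, 0.26 in NK, 0.018 in gamma delta T and -4.79 in CD4 T cells, and NK Gzmd, Gzme, Gzmf and Gzmg turned to 2.42, 1.69, 4.12 and 1.34. With 1% it was -1.16 in CD8 T, -0.062 in NK, -0.32 in Cd7/Itgae and -1.64 in CD4 T cells. With MHC class II under 0.5% it was -0.85 in CD8 T, 0.27 in NK, -0.20 in Cd7/Itgae, 0.39 in gamma delta T and -2.78 in CD4 T cells, and NK Gzmd, Gzme, Gzmf and Gzmg turned to 2.44, 1.64, 4.10 and 1.36. With 1 UMI more per marker it was -1.16 in CD8 T, -0.15 in NK, 0.055 in Cd7/Itgae, 0.31 in gamma delta T and -2.83 in CD4 T cells, and Cd7/Itgae Gzmd and Gzmf turned to 1.60 and 2.88. Without cycling cells it was -1.55 in CD8 T, 0.49 in NK, 0.045 in Cd7/Itgae, -0.46 in gamma delta T and -1.65 in CD4 T cells, NK Gzmd, Gzme and Gzmf turned to 2.51, 1.90 and 4.24, and gamma delta T Gzmb and Gzmf to -0.015 and -3.94. As a mean over cells it was -1.15 in CD8 T, 0.16 in NK, -0.11 in Cd7/Itgae, -0.033 in gamma delta T and -2.92 in CD4 T cells, and NK Gzmd, Gzme and Gzmf turned to 0.044, 0.0023 and 0.42. Without the cell of each library with the most UMIs of the 9 genes it was -1.33 in CD8 T, 0.21 in NK, -0.20 in Cd7/Itgae and -3.06 in CD4 T cells, and NK Gzmd, Gzme, Gzmf and Gzmg turned to 2.47, 1.67, 4.18 and 1.39. Thinned to 1000 UMIs it was 0.13 in NK, -0.18 in Cd7/Itgae, -0.15 in gamma delta T, -2.86 in CD4 T and -0.19 in B cells, NK Gzmd and Gzmf turned to 1.05 and 0.12, Cd7/Itgae Gzma to -0.056, gamma delta T Gzma, Gzmb and Gzmf to -0.041, -0.062 and -0.50, and B cell Gzmb and Gzmc to 0.059 and 0.059. Median-of-ratios size factors gave 0.0083 in NK cells and shifted B cells by 0.35. With the B cell level subtracted it was 0.30 in gamma delta T and -4.85 in CD4 T cells. The 3 settings that follow were chosen after seeing the data. Without cells with 2 NK genes it was -1.20 in CD8 T, 0.58 in gamma delta T and -4.76 in CD4 T cells. Without the cell with the most UMIs of the gene itself NK Gzme and Gzmf turned to 0.96 and 0.40. Without the 5 cells with the most UMIs of the sum or gene it was -1.42 in CD8 T, 0.13 in NK, -0.17 in Cd7/Itgae and -2.89 in CD4 T cells, Cd7/Itgae Gzmf turned to 0.33 and gamma delta T Gzma to -0.27. The cause of these changes was not tested. Gzma of CD8 T cells stayed between -3.46 and -2.24, Gzmc of CD8 T cells between -3.57 and -0.63 and Gzmc of NK cells between 0.88 and 1.98 in every alternative run. In CD8 T cells 757 genes were at least 1.5-fold lower in tumour and 775 higher, against 370 and 387 with at least 50 UMIs, 1909 and 1752 with a UMI in each library, and 268 and 278 at 2-fold. The same counts of lower and higher genes were 522 and 847 in NK cells, against 231 and 366 with at least 50 UMIs, 1189 and 2110 with a UMI in each library and 170 and 268 at 2-fold. They were 566 and 666 in Cd7/Itgae cells, against 207 and 240, 1515 and 1845, and 162 and 236 in that order of settings. They were 476 and 1042 in gamma delta T cells, against 191 and 458, 1289 and 1948, and 112 and 436, and 761 and 741 in CD4 T cells, against 315 and 239, 1876 and 2134, and 270 and 269. No paired analysis was possible because each tissue has 1 library.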
